A study of Mus musculus with 6 samples.

Results

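The DEAD-box genes described here were 34 mouse genes whose symbol is Ddx followed by a number, out of 22180 genes read by a probe set that carried a single gene symbol. The family was chosen by a measured value, the lower signal of Ddx5 in CX3CR1int macrophages, and the other members were taken by symbol alone. All values of Ddx5 that involve CX3CR1int cells are therefore given as a description, with no test. The question was whether other family members share that lower signal. Y-linked Ddx3y was not included. Ddx19a and Ddx49 had no probe set with that single symbol, so they were not members. Of the 34 members, 31 passed the filter on dim probe sets (a mean log2 signal of at least 4.335), and 3 did not.

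Macrophages were sorted by flow cytometry from digested ear skin of C57Bl/6 mice aged 2 weeks, held under specific-pathogen-free conditions. Every animal was Cx3cr1+/gfp, which means that a gene for green fluorescent protein replaces the fractalkine receptor gene on 1 chromosome, so all subsets carried that allele and no subset was wild type. The groups were CX3CR1int, CX3CR1high (titled "bright" by the submitters) and CX3CR1low cells. Each had 2 samples of 4 pooled mice, from 2 independent litters.

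DEAD-box proteins are named after a run of the amino acids aspartate, glutamate, alanine and aspartate in their ATP-binding core. They use ATP to open short stretches of paired RNA or to strip proteins from RNA, and different members work in splicing, RNA export, translation, decay and ribosome assembly. Ddx5 and its close relative Ddx17 act in transcription, in splicing and with the microprocessor, the complex that cuts microRNA precursors. Membership here went by symbol, which also took in Ddx58 (RIG-I), a sensor of viral RNA. Whether each member carries that run of amino acids was not checked.

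The array had 2 kinds of probe set for Ddx5, and the sequences below show what they name. The first carried the symbol Ddx5 alone (probe set 17270999), and the second carried both Ddx5 and Mir3064 (probe set 17270974). In RefSeq on GRCm38.p6, Ddx5 lies on the minus strand of chromosome 11 at chr11:106780355-106789185, and the Mir3064 hairpin lies inside that span on the same strand, at chr11:106782693-106782759. The mature microRNAs of that hairpin are printed 5′ to 3′ with the seed, bases 2 to 8, in capitals.
mmu-miR-3064-5p: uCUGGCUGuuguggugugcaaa
mmu-miR-3064-3p: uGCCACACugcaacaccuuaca

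RefSeq gives 3 annotated starts for Ddx5 and 2 for Ddx17. Windows of 250 bases before to 50 bases after a start were searched on both strands for TATAAA and CCAAT and for GGGCGG and CACGTG, and 3 windows are shown for the paralogous pair, 5′ to 3′ on the gene's minus strand, with matches to these motifs in capitals. The upstream Ddx5 window (chr11:106789136-106789435, GRCm38.p6) held a CCAAT match, read as ATTGG on the printed strand. The Ddx5 window furthest downstream (chr11:106788445-106788744) held TATAAA and GGGCGG matches, some of which overlap each other. The upstream Ddx17 window (chr15:79546692-79546991) held a GGGCGG match.
Ddx5, upstream start: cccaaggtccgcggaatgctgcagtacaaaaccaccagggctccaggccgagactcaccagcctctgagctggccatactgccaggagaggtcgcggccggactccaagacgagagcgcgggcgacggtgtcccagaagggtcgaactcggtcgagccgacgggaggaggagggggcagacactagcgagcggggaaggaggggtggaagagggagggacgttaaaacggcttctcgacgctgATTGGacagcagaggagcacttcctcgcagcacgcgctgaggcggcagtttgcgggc
Ddx5, downstream start: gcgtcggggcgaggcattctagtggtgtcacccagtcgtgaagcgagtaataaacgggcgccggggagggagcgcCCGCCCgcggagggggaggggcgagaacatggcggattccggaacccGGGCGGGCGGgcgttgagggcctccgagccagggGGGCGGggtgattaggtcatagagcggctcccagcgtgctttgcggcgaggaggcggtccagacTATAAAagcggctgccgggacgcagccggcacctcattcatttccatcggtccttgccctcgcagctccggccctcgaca
Ddx17, upstream start: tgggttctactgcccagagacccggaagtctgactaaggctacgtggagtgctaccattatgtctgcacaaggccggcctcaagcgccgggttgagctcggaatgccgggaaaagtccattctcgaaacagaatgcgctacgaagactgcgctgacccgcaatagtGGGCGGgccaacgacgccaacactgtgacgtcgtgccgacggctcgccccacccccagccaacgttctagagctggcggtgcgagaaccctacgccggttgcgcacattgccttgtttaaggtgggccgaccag

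The promoter table held 39 windows for 32 member genes. GGGCGG was found in 59.0% of these windows, against 35.7% of the 32851 windows of all genes, and CCAAT in 51.3% against 37.4%. TATAAA was found in 12.8% of member windows against 13.6% of all windows, and CACGTG in 10.3% against 7.2%. These shares describe letters in the windows and were not tested.

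The 6 arrays had medians of 4.84 to 4.94 on the log2 scale and correlated across genes at 0.974 to 0.977 within a subset and 0.960 to 0.978 between subsets. All 8 macrophage markers were above the dim level, with mean log2 signals of 10.51 and 10.62 in CX3CR1int, 10.45 and 10.54 in CX3CR1high, and 10.55 and 10.47 in CX3CR1low samples. Markers of other skin cells were also measured. Means over the 12 of 13 keratinocyte markers above the dim level were 6.27 and 6.45 in CX3CR1int, 6.26 and 6.24 in CX3CR1high, and 6.63 and 6.93 in CX3CR1low samples. Those over 8 of 9 fibroblast markers were 7.35 and 7.45, 6.93 and 7.01, and 7.68 and 8.32 in the same order, and those over 5 of 7 mast cell markers were 5.89 and 5.89, 4.80 and 4.72, and 6.63 and 6.25. CX3CR1int samples thus lay between the other subsets for fibroblast and mast cell markers. The T cell list (4 of 7 above the dim level) and the endothelial list (3 of 5) ranged from 6.04 to 6.59 and from 5.41 to 6.10 over the 6 samples. Genes of handling stress, such as Fos and Jun, averaged 9.72 and 9.70 in CX3CR1int, 9.76 and 9.54 in CX3CR1high, and 9.95 and 9.83 in CX3CR1low samples. Fcer1a, Ms4a2, Cd3g, Kdr and Tek were the only markers of these lists below the dim level. The other markers left out had no probe set with their symbol alone and were not measured here. In sorted bulk cells, fewer cells of a type and less RNA per cell cannot be told apart. The 2 samples of a subset came from separate litters, and p-values measure only the spread between such pairs of pools.

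Ddx5, on the probe set with its symbol alone, had log2 signals of 8.72 and 8.84 in CX3CR1int samples, against 10.12 and 9.81 in CX3CR1high and 10.41 and 10.58 in CX3CR1low samples. Both CX3CR1int samples lay below all 4 others with no overlap. The means were 8.78 ± 0.08 in CX3CR1int, 9.965 ± 0.22 in CX3CR1high and 10.495 ± 0.12 in CX3CR1low cells (SD, n = 2 each). The CX3CR1int mean was 2.73-fold lower than the mean of both other subsets, a log2 difference of -1.45 (SE 0.140). It was lower by a log2 difference of -1.185 against CX3CR1high alone and of -1.715 against CX3CR1low alone. Because this value prompted the choice of the family, it carries no test.

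The probe set shared by Ddx5 and Mir3064 gave a much smaller difference. Its log2 signals were 10.76 and 10.78 in CX3CR1int, against 10.84 and 10.86 in CX3CR1high and 10.99 and 11.06 in CX3CR1low samples. Here too both CX3CR1int samples were the lowest of the 6, but the difference from the mean of the other subsets was only -0.17 (SE 0.102). The difference between these 2 log2 differences was 1.28. Among the 1751 genes with at least 2 probe sets above the dim level, counting those shared with other genes, the median of this quantity was 0.185. Ddx5 was 1 of 21 genes (1.2%) at 1.28 or more. Its gap holds the value that prompted the choice of the family, so this place among genes is a description and no test. Which stretch of the Ddx5 gene each probe set covers was not given in the sources used here, and the reason for the gap was not tested.

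**Figure D1:**
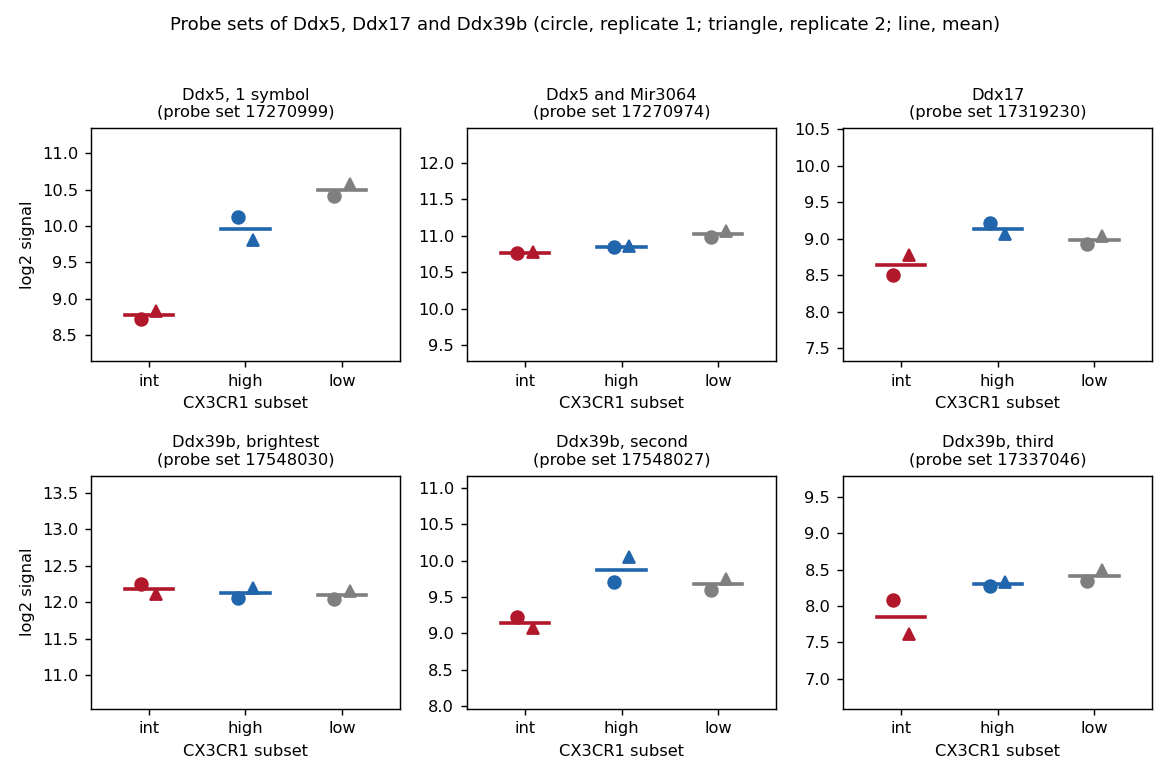
Log2 signal (y axis) of probe sets of Ddx5, Ddx17 and Ddx39b in CX3CR1int, CX3CR1high and CX3CR1low samples (x axis), with a circle for replicate 1, a triangle for replicate 2 and a line at each subset mean. The Ddx5 probe set sits at 8.72 and 8.84 in CX3CR1int samples, below the 4 others, while the probe set shared with Mir3064 stays between 10.76 and 11.06 in all 6 samples.

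The contrast between CX3CR1high and CX3CR1low cells played no part in the choice of Ddx5. Its signals of 10.12 and 9.81 in CX3CR1high samples lay below those of 10.41 and 10.58 in CX3CR1low samples, with no overlap. The share of all genes with no overlap between these subsets was not counted. The log2 difference was -0.53 ± 0.162 (SE, 95% interval -0.90 to -0.16, n = 2 each). With limma the unadjusted p was 0.0100 and the adjusted p over all genes 0.300, so the difference did not pass the threshold. The probe set shared with Mir3064 differed by -0.175 between the same subsets.

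None of the other 30 tested members passed the test for CX3CR1int against the mean of CX3CR1high and CX3CR1low cells. The test was limma's, adjusted over all genes, and it called 0 of 15528 genes (0%) in that comparison. At an unadjusted p below 0.05 there was 1 member, Ddx17, and 848 of all genes (5.46%). Of the 30 members, 12 had a negative log2 difference and 18 a positive one, so 40.0% were negative against 48.8% of all genes. Their median was 0.018, against 0.0025 for all genes. The median size of the difference was 0.121 for the members and 0.122 for all genes. For 24 members (80.0%) the difference was within 0.2 of 0, against 71.6% of all genes. The middle 95% of all genes spanned -0.445 to 0.42, and 29 of the 30 members lay inside it, with Ddx18 above it. On the probe sets that stood for the genes, no member had a 95% interval that reached -1, and the lowest bound was -0.76, for Ddx17. These statements depend on the choice of probe set for Ddx39b. It counted here at 0.07, while its dimmer probe sets differed by -0.625 and -0.51, as given below.

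**Figure D2:**
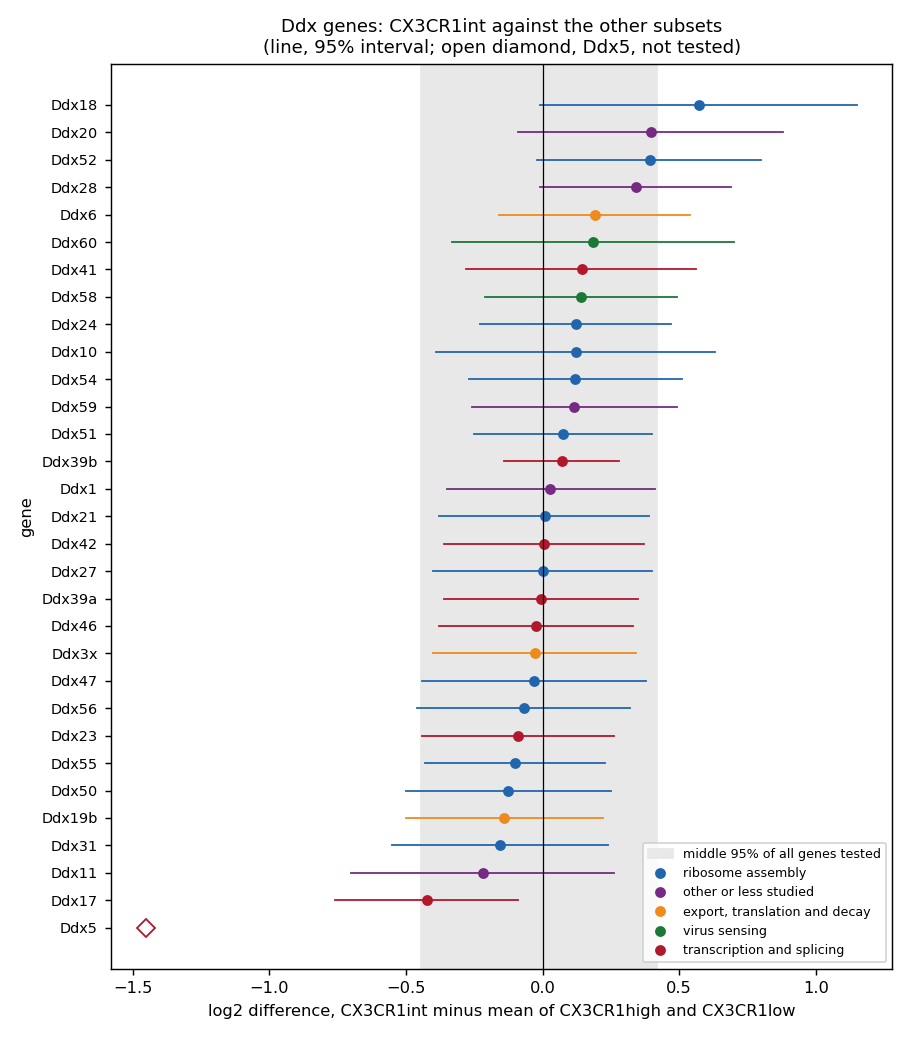
Log2 difference of CX3CR1int minus the mean of CX3CR1high and CX3CR1low cells (x axis) for each of the 31 tested members (y axis), coloured by role, with 95% intervals from limma (n = 2 samples per subset) and the middle 95% of all genes in grey. Ddx5, the open diamond with no interval, stands at -1.45, Ddx17 follows at -0.42, and the members run up to 0.57 for Ddx18.

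Among transcription and splicing members, Ddx17, the closest relative of Ddx5, had the lowest difference after it on the probe sets that stood for the genes. Its log2 signals were 8.50 and 8.78 in CX3CR1int, against 9.22 and 9.06 in CX3CR1high and 8.93 and 9.04 in CX3CR1low samples. On those probe sets it was the only other member with both CX3CR1int samples below all 4 others, a pattern seen in 908 of 15528 genes (5.85%). The dimmer probe sets of Ddx39b, described next, had that pattern too, with larger differences than Ddx17. The mean was 1.34-fold lower in CX3CR1int cells, a log2 difference of -0.42 ± 0.147 (SE, 95% interval -0.76 to -0.09), with a limma p of 0.0187 and an adjusted p of 0.862. The difference was -0.50 against CX3CR1high alone and -0.345 against CX3CR1low alone. Between CX3CR1high and CX3CR1low cells it was 0.155, where the estimate for Ddx5 was -0.53.

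Ddx39b, an RNA helicase that works in splicing and couples it to messenger RNA export, had 3 probe sets with its symbol, and they gave different values. The brightest (probe set 17548030), which stands for the gene, had log2 signals of 12.25 and 12.12 in CX3CR1int, against 12.06 and 12.20 in CX3CR1high and 12.04 and 12.16 in CX3CR1low samples. These groups overlapped, and the difference was 0.07 ± 0.094 (SE, adjusted p 0.979). The second (17548027) was at 9.22 and 9.08 in CX3CR1int, against 9.70 and 10.05 in CX3CR1high and 9.60 and 9.75 in CX3CR1low samples, a difference of -0.625 ± 0.149 (SE). The third (17337046) was at 8.08 and 7.62 in CX3CR1int, against 8.28 and 8.33 in CX3CR1high and 8.34 and 8.49 in CX3CR1low samples, a difference of -0.51 ± 0.173 (SE). Both dimmer probe sets had their CX3CR1int samples below the 4 others. That pattern held for 5.85% of all genes, and its share over all probe sets was not counted. In a limma fit of each probe set on its own, chosen after seeing the data, their p was 0.00307 and 0.0186 and their adjusted p 0.540 and 0.752. That fit called 0 of the 24075 probe sets tested (0%). The largest gap between the log2 differences of Ddx39b probe sets was 0.695, and 74 genes (4.23%), Ddx39b included, had a gap at least as large.

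The remaining transcription and splicing members lay close to 0. Ddx23, Ddx46, Ddx42 and Ddx41, which act in or with the spliceosome, differed by -0.09, -0.025, 0.005 and 0.14. Ddx39a, the relative of Ddx39b in RNA export, differed by -0.005. Over the 7 members of this group without Ddx5, 3 were above 0 and 4 below, with a median of -0.005 and a range of -0.42 to 0.14.

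Members that act in export, translation and decay also had small differences. Ddx3x, which helps translation of messenger RNAs with structured leaders, had log2 signals of 9.92 and 10.39 in CX3CR1int, against 9.91 and 10.22 in CX3CR1high and 10.23 and 10.37 in CX3CR1low samples. Its difference was -0.03 ± 0.163 (SE, adjusted p 0.998), and the subsets overlapped. Replicate 2 was higher than replicate 1 in every subset, by 0.307 on average. The X-linked transcript Xist was likewise higher in replicate 2 of every subset, at 10.99 against 7.61 in CX3CR1int, 11.39 against 7.97 in CX3CR1high and 11.24 against 7.39 in CX3CR1low samples. Y-linked Eif2s3y was lower in replicate 2 of every subset, at 3.72 against 7.86 in CX3CR1int, 3.57 against 7.76 in CX3CR1high and 2.99 against 8.27 in CX3CR1low samples. The replicates thus differed in sex composition, and its part in the values of Ddx3x was not tested. Ddx6, a decapping activator of processing bodies, was at 9.56 and 9.17 in CX3CR1int, against 9.38 and 9.22 in CX3CR1high and 9.11 and 8.98 in CX3CR1low samples. Its difference was 0.19, and that of Ddx19b, which releases messenger RNA at the nuclear pore, was -0.14.

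In the ribosome assembly group 13 members were tested, of which 8 were above 0 and 5 below, with a median of 0.0075. Ddx18, which acts in assembly of the large ribosomal subunit, had the highest difference of all members. Its log2 signals were 8.47 and 7.87 in CX3CR1int, against 7.54 and 7.70 in CX3CR1high and 7.99 and 7.16 in CX3CR1low samples. A CX3CR1low sample exceeded a CX3CR1int sample, and the difference of 0.57 ± 0.256 (SE, 95% interval -0.01 to 1.15) had an adjusted p of 0.918. It was 0.2725 without CX3CR1int replicate 1, 0.8725 without CX3CR1int replicate 2, 0.365 without CX3CR1low replicate 2 and 0.2963 with the mean of keratinocyte and fibroblast markers as a covariate. A dimmer Ddx18 probe set differed by only 0.11.

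Ddx52, the relative of a yeast protein that acts in small subunit assembly, was the only member with both CX3CR1int samples above all 4 others, a pattern of 926 genes (5.96%). It was at 6.29 and 6.58 in CX3CR1int, against 5.76 and 6.17 in CX3CR1high and 6.21 and 6.03 in CX3CR1low samples, a difference of 0.39 ± 0.180 (SE, adjusted p 0.930). Ddx31, a nucleolar member, was at 5.51 and 5.43 in CX3CR1int, against 5.91 and 5.40 in CX3CR1high and 5.61 and 5.58 in CX3CR1low samples. Its difference was -0.155 ± 0.176 (SE, adjusted p 0.979), among the 4 lowest. Ddx21, which acts in transcription and processing of ribosomal RNA, was nearly level at 0.0075.

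The virus sensing members were slightly above 0. Ddx58 was at 6.38 and 6.55 in CX3CR1int, against 6.27 and 6.30 in CX3CR1high and 6.25 and 6.48 in CX3CR1low samples, a difference of 0.14. Ddx60, an interferon-induced antiviral gene, differed by 0.185. Neither passed the test.

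Among members with other roles, Ddx20 belongs to the SMN complex that loads proteins onto spliceosomal RNAs. It was at 6.47 and 6.77 in CX3CR1int, against 6.44 and 5.95 in CX3CR1high and 6.51 and 6.00 in CX3CR1low samples, a difference of 0.395 ± 0.214 (SE, adjusted p 0.976). Ddx28, which acts in assembly of the mitochondrial ribosome, was at 5.66 and 5.85 in CX3CR1int, against 5.73 and 5.58 in CX3CR1high and 5.28 and 5.06 in CX3CR1low samples, a difference of 0.34 ± 0.155 (SE, adjusted p 0.922). Ddx11, a DNA helicase of sister chromatid cohesion, was at 5.21 and 4.63 in CX3CR1int, against 5.60 and 5.15 in CX3CR1high and 5.02 and 4.78 in CX3CR1low samples. Its difference was -0.22 ± 0.211 (SE, adjusted p 0.979). In each of these genes at least 1 CX3CR1int sample lay within the range of the others. The germline members Ddx4 and Ddx43 and the testis-expressed Ddx25 were below the dim level in all 6 samples, at 2.82 to 4.06.

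**Figure D3:**
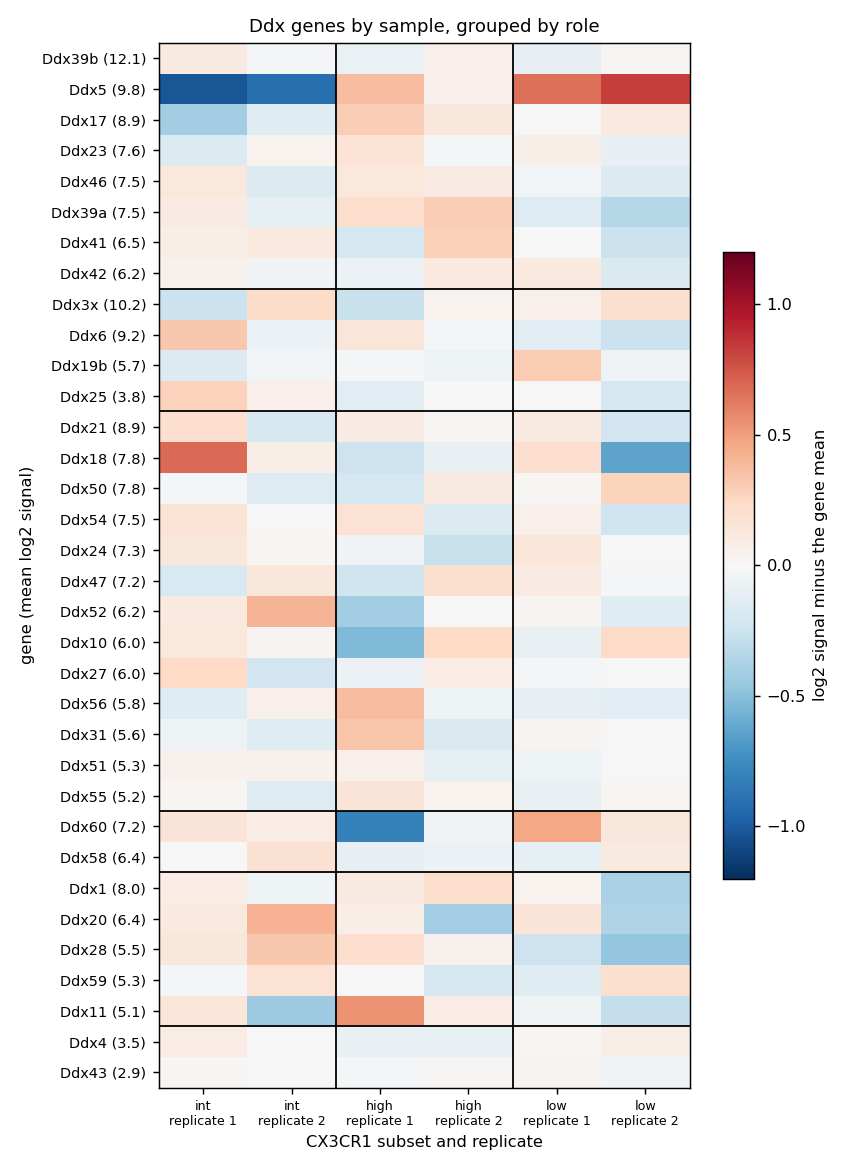
Log2 signal of each member minus its own mean over the 6 samples (colour), for the 34 members in rows grouped by role and the 6 samples in columns, CX3CR1int first. The number beside a gene is its mean log2 signal, and Ddx5 has the deepest blue of all rows in both CX3CR1int samples, while Ddx4, Ddx43 and Ddx25 are the dim members.

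No member other than Ddx5, which was not tested there, was called when CX3CR1int was set against either subset alone. Against CX3CR1high alone, 14 of the 30 members had a lower and 16 a higher estimate in CX3CR1int, with a median of 0.03, and 0 were called by limma, against 21 of 15528 genes (0.135%). Ddx17 alone had an unadjusted p below 0.05 there (adjusted p 0.483), against 1225 of all genes (7.89%). Against CX3CR1low alone, 9 had a lower and 21 a higher estimate, with a median of 0.06, and 0 members and 0 genes (0%) were called. Only Ddx28 had an unadjusted p below 0.05 there, with a difference of 0.585 (adjusted p 0.919), against 758 of all genes (4.88%). The comparisons share samples, so they are not independent of each other.

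Between CX3CR1high and CX3CR1low cells, a contrast that the choice of the family did not use, all 31 members could be read and 0 were called, against 62 of 15529 genes (0.399%). Of the members, 18 had a higher and 12 a lower estimate in CX3CR1high, with a median of 0.045. At an unadjusted p below 0.05 there were 4 members, Ddx5, Ddx39a, Ddx60 and Ddx28, and 1499 of all genes (9.65%). The middle 95% of all genes spanned -0.645 to 0.615, and 30 members lay inside it, with Ddx60 below it.

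Ddx60 had log2 signals of 6.34 and 7.11 in CX3CR1high, against 7.62 and 7.29 in CX3CR1low samples, with CX3CR1int samples at 7.31 and 7.24. The difference was -0.73 ± 0.260 (SE, 95% interval -1.32 to -0.14), with p 0.0210 and adjusted p 0.394 by limma. The samples did not overlap, but the SD of the CX3CR1high samples was 0.54. The difference was -0.345 without CX3CR1high replicate 1 and -1.115 without replicate 2. Ddx39a was at 7.69 and 7.78 in CX3CR1high, against 7.33 and 7.14 in CX3CR1low samples, a difference of 0.50 ± 0.178 (SE, 95% interval 0.10 to 0.90, adjusted p 0.393). Ddx28 was at 5.73 and 5.58 in CX3CR1high, against 5.28 and 5.06 in CX3CR1low samples, a difference of 0.485 ± 0.179 (SE, adjusted p 0.417). Neither overlapped between these subsets. The share of all genes with no overlap there was not counted, so the lack of overlap of these genes and of Ddx60 sets none of them apart. Keratinocyte, fibroblast and mast cell marker means were lower in CX3CR1high than in CX3CR1low samples, as given above. With the keratinocyte and fibroblast mean as a covariate the fit called 0 genes in this contrast. That mean was 6.53 and 6.55 in CX3CR1high, against 7.05 and 7.48 in CX3CR1low samples. The covariate and the contrast therefore cannot be told apart, and the part of other cells was not tested. The difference was then 0.116 for Ddx39a, -1.21 for Ddx60 and -0.2325 for Ddx5.

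A second probe set names Ddx39a together with Adgre5, an adhesion receptor of leukocytes. It was at 10.57 and 10.51 in CX3CR1high, against 8.99 and 9.55 in CX3CR1low samples, a difference of 1.27. Its signal cannot be assigned to either gene. Ddx49 was named only on a probe set shared with Homer3, with a CX3CR1int minus mean difference of 0.115.

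**Figure D4:**
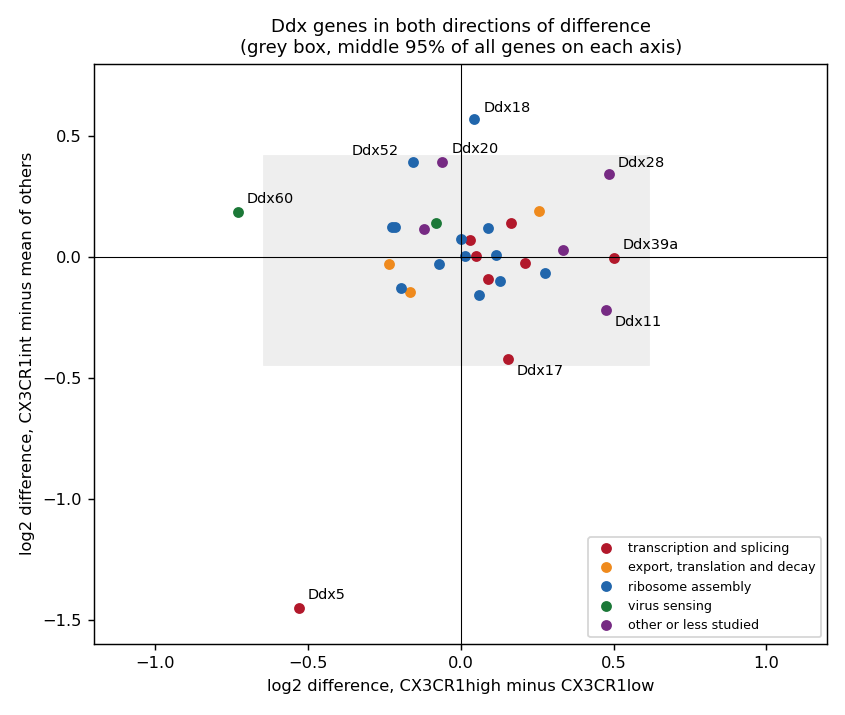
Log2 difference of CX3CR1int minus the mean of the other subsets (y axis) against that of CX3CR1high minus CX3CR1low (x axis) for the 31 tested members, a point each, coloured by role, with the middle 95% of all genes as a grey box. Ddx5 sits apart at -1.45 on the y axis and -0.53 on the x axis, with Ddx18 above the box and Ddx60 to its left.

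Gene lists put together by function around the family had 0 genes called in CX3CR1int against the mean of the other subsets. Of the DEAD-box translation factors without a Ddx symbol, Eif4a1, Eif4a2 and Eif4a3 were tested, with 1 above 0 and 2 below. Eif4a2 was the lowest of these at -0.268 (adjusted p 0.976). Of the 29 of 30 DEAH-box and other RNA helicases tested, 14 were above and 15 below 0, with a median of -0.005 and a range of -0.357 to 0.258. The lowest was Dhx40, at 7.31 and 7.39 in CX3CR1int, against 7.73 and 8.24 in CX3CR1high and 7.32 and 7.54 in CX3CR1low samples. Of the 11 of 12 genes that make, export or use microRNAs and other small RNAs, 5 were above and 6 below 0, with a median of -0.028. Drosha, the RNase of the microprocessor, differed by 0.02.

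Lists of splicing, export, decay and ribosome assembly genes followed. The hnRNP and SR splicing factors, 30 of 32 tested, had 11 above and 19 below 0, with a median of -0.104, beside 48.8% below 0 and a median of 0.0025 over all genes. The 3 of smallest p were Hnrnph2, Srsf3 and Sf3b1. Hnrnph2, an RNA-binding splicing regulator, was at 9.78 and 9.78 in CX3CR1int, against 8.97 and 9.48 in CX3CR1high and 9.37 and 9.33 in CX3CR1low samples, a difference of 0.49 ± 0.161 (SE, adjusted p 0.826). Srsf3, an SR protein, was at 8.06 and 7.94 in CX3CR1int, against 8.35 and 8.52 in CX3CR1high and 8.19 and 8.43 in CX3CR1low samples, a difference of -0.372 ± 0.151 (SE, adjusted p 0.905). Sf3b1, which recognises the branch point, was at 9.80 and 9.80 in CX3CR1int, against 10.06 and 10.21 in CX3CR1high and 9.86 and 10.12 in CX3CR1low samples, a difference of -0.262 ± 0.130 (SE, adjusted p 0.950). Hnrnph2 had both CX3CR1int samples above the 4 others, a pattern of 5.96% of all genes. Srsf3 and Sf3b1 had both below them, a pattern of 5.85% of all genes. These genes were picked by smallest p, so their lack of overlap does not set them apart. The messenger RNA export genes, 11 of 12 tested, had 5 above and 6 below 0, with a median of -0.003. Alyref, the export adaptor that binds Ddx39b, was at 5.66 and 5.56 in CX3CR1int, against 6.18 and 6.13 in CX3CR1high and 5.88 and 6.09 in CX3CR1low samples, a difference of -0.46 ± 0.150 (SE, adjusted p 0.826). Nxf1, the export receptor, differed by -0.41 (adjusted p 0.865). Both CX3CR1int samples of Alyref and of Nxf1, likewise picked by smallest p, lay below the 4 others, as in 5.85% of all genes. Among decapping and decay genes, 13 of 15 tested, 7 were above and 6 below 0, with Cnot7, a deadenylase, at -0.507 (adjusted p 0.826). Among nucleolar genes, 23 of 24 tested, 13 were above and 10 below 0, with Nop56, a core protein of box C/D small nucleolar particles, at -0.507 (adjusted p 0.841). In the pairwise comparisons these lists had 0 called genes as well.

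Likeness to Ddx5 was measured by the root mean square difference between profiles centred on their own mean over the 6 samples. The profiles were not scaled, so a gene with small differences could not lie near Ddx5, whatever its shape. The distance also uses the CX3CR1int values of Ddx5 that prompted the choice, so the ranking is a description. None of the nearest 6 genes was a member of the family. The nearest 6 were Pisd-ps3 at 0.286, Ucma at 0.298, n-R5s136 at 0.303, Rab26os at 0.324, Orm2 at 0.325 and Snord17 at 0.331. Orm2 was at 4.03 and 4.02 in CX3CR1int samples, below the dim level, and passed the filter through the other subsets. RefSeq lists Pisd-ps3 as a transcribed pseudogene, n-R5s136 as ribosomal RNA, Rab26os as a long non-coding RNA and Snord17 as a small nucleolar RNA. It lists Ucma and Orm2 as protein-coding genes. Rab26os had log2 signals of 7.73 and 7.57 in CX3CR1int, against 9.39 and 8.99 in CX3CR1high and 9.07 and 8.91 in CX3CR1low samples, a difference of -1.44. Ddx17 was the nearest member, at 0.563, and ranked 341 among the 15528 other genes tested.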

How the data were processed

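RNA of the sorted cells was amplified with a whole-transcriptome kit, per the labels' protocols, and put on Affymetrix arrays. Per the submitters' processing notes, the authors used RMA and Expression Console 1.4, and the log2 signals were taken as deposited. Of 34390 probe sets, 23521 carried 1 gene symbol, 1814 several and 9055 none. The brightest probe set with 1 symbol stood for each gene, and genes below the 30th percentile (4.335) were left out as dim, which left 15529. Tests of log2 differences came from limma 3.58.1 (R 4.3.3), with a mean per subset and an intensity trend. They were two-sided, with p-values adjusted by Benjamini and Hochberg's method over all genes and a threshold of 0.05. Ddx5 was left out of counts in comparisons that hold CX3CR1int. The fit was tested on simulated data. There were 2 arrays per subset, with a median SE of 0.167 for CX3CR1int minus the mean and 0.193 between subsets, so the number of arrays limits the precision.

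Members and lists were chosen with earlier results of these data known. Values were given for Ddx5, Ddx17, Ddx3x, the 4 lowest and 4 highest members, the 3 largest differences between CX3CR1high and CX3CR1low cells, the 3 brightest members, and up to 3 genes of smallest p per other list. Samples with the same replicate number deviated together (r 0.178, 0.146 and 0.136 across genes for the 3 pairs of subsets) and shared sex composition, so a replicate block was run as an alternative. Other alternatives changed the dim filter, probe set choice, variance prior, normalization and covariates, or left out samples. Probe positions and protein sequences were not used here.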

Additional observations from a re-analysis of the deposited data

How the results depend on the processing

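No Ddx member was called in any of the 4 comparisons under any of 15 alternative settings chosen with the design, and the lowest adjusted p of a member was 0.243 (limma). Of 175 values of named members under alternatives, among which Ddx39b was not counted, 170 kept their sign. The 5 that turned were Ddx11, which ranged from -0.5075 to 0.0725 when a sample was left out (the top without CX3CR1int replicate 2), and Ddx3x, at 0.0572 with the keratinocyte and fibroblast covariate, 0.2075 without CX3CR1int replicate 1, 0.05 without CX3CR1high replicate 2 and 0.0075 without CX3CR1low replicate 2, in a leave-one-out range of -0.2625 to 0.2075. Leave-one-out ranges were 0.2725 to 0.8725 for Ddx18, 0.245 to 0.545 for Ddx20, 0.2475 to 0.5375 for Ddx52 and -0.2825 to -0.0275 for Ddx31, and -1.115 to -0.345 for Ddx60 in CX3CR1high minus CX3CR1low cells. With the covariate, which cannot be told apart from that last contrast, the contrast gave -0.2325 for Ddx5, 0.116 for Ddx39a and -1.21 for Ddx60. In CX3CR1int minus the mean, Ddx18 and Ddx11 were at 0.2963 and -0.3408 with the covariate. Ddx39b, at 0.07 on its brightest probe set and -0.625 and -0.51 on the others, turned negative with the mean of all probe sets of a gene. In that setting 13 members were below 0 and 2 had an unadjusted limma p below 0.05, against 12 and 1 in the main fit. When probe sets with several symbols were allowed, a choice made after seeing the data, Ddx5 was at -0.17. In CX3CR1high minus CX3CR1low cells that limma fit called 62 of 16790 genes. Among them was 1 member symbol, Ddx39a, on the probe set shared with Adgre5 (1.27, adjusted p 0.0427). That signal cannot be assigned to either gene. In the limma fit of each probe set on its own, its adjusted p was 0.0827, so it was not called there. The probe set with Ddx39a alone had an adjusted p of 0.393 in the main fit.

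With the replicate block the counts of called genes were 2 for CX3CR1int minus the mean, 46 against CX3CR1high and 154 for CX3CR1high minus CX3CR1low, against 0, 21 and 62 without it. CX3CR1int minus CX3CR1high gave 4 genes without the intensity trend and 4 after a further quantile normalization. It gave 0 with no dim filter, with median centring, with the covariate and with several symbols allowed. CX3CR1high minus CX3CR1low gave 26 with no dim filter and 0 with the covariate, which itself differed between those subsets. Leaving out 1 sample gave 0 to 1 genes for CX3CR1int minus the mean, 0 to 17 against CX3CR1high and 0 to 39 for CX3CR1high minus CX3CR1low. The counts were 0 against CX3CR1high without replicate 1 of CX3CR1int or of CX3CR1high, and 0 for CX3CR1high minus CX3CR1low without CX3CR1high replicate 1. The lone sample of a subset was then assumed to vary like the others. Members below 0 for CX3CR1int minus the mean numbered 9 to 15 across those fits. The causes were not tested. With 2 arrays per subset, small differences could not be told from 0.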

Other observations

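Chosen after their values were seen, 6 of the other 15528 genes tested had a CX3CR1int minus mean difference as low as that of Ddx5. Of these, 5 were small non-coding RNAs, and the share of such RNAs among all genes tested was not counted. These were Mir18 at -1.69, Rnu3a at -1.49, Scarna17 at -1.47, Snord92 at -1.46 and Snord65 at -1.455, beside Stfa3, a protein-coding gene of the cystatin family, at -1.51. Snord92 was at 3.58 and 3.46 in CX3CR1int samples, below the dim level, and passed the filter through the other subsets. Stfa3 differed widely between replicates, at 2.91 and 5.66 in CX3CR1int, 5.05 and 6.06 in CX3CR1high, and 4.32 and 7.75 in CX3CR1low samples. Counting both directions, 8 genes other than Ddx5 lay as far from 0. None of the 6 passed the limma test, which called 0 genes in this comparison.

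Across replicates, 2 of the 31 tested members were higher in replicate 2 than in replicate 1 of every subset (Ddx3x and Ddx58) and 7 were lower (Ddx6, Ddx11, Ddx21, Ddx24, Ddx31, Ddx46 and Ddx54). Over all genes the shares were 12.0% and 16.5%.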
